A study of Homo sapiens with 6 samples.

Results

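The cytosolic ribosomal protein genes encode the proteins of the large (RPL) and small (RPS) subunits of the ribosome that translates messenger RNA in the cytoplasm. They were chosen by name, as the protein-coding genes whose symbol starts with RPL or RPS, without the RPS6K kinases. The rule named 92 genes in the annotation, and 90 of the 57905 genes in the count files fit it. These 90 comprised 77 canonical ribosomal protein genes (46 of the large and 31 of the small subunit), 9 paralogs of such genes, 3 readthrough genes that join a ribosomal protein gene to its neighbour, and RPS19BP1, which shares the symbol but encodes a binding partner of RPS19. After the filter on low counts 84 of the 90 were tested among 14398 genes.

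Total RNA of H929, an established multiple myeloma (malignant plasma cell) line, was incubated in vitro with or without the recombinant cytoplasmic part of IRE1, the endoplasmic reticulum stress sensor that cuts RNA, and poly(A) RNA was then sequenced. The 3 IRE1-treated libraries came from 5 µg of RNA each, exposed for 1 h at 37 °C to 2 µg of human ERN1 (IRE1α, amino acids 467 to 977), and the 3 control libraries came from the same incubation without the enzyme. The submitters describe the 6 RNAs as biological replicates of 1 line, and each library had its own sequencing lane, so that lane and library cannot be told apart. Enzyme acted on purified RNA and not in living cells, with no transcription during the assay. In a cut mRNA the poly(A) selection keeps the 3′ piece and loses the 5′ piece, and the counts per gene do not show which part of the mRNA a read came from.

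Ribosomal protein mRNAs are short, stable and among the most abundant of a growing cell, and plasma cells use many ribosomes to make secreted immunoglobulin. Most of these mRNAs begin with a terminal oligopyrimidine (TOP) tract, through which mTOR and LARP1 control their translation. IRE1 is known for cutting XBP1 mRNA, and other mRNAs, at a CUGCAG consensus in the loop of a hairpin. Ribosomal protein genes have many processed pseudogenes, whose near-identical sequence can take or share reads.

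The libraries held 19615715 to 25678499 counts on genes. The 11 plasma cell markers were present in every library, with 47821 to 72278 counts for XBP1, 80331 to 102846 for JCHAIN and 19668 to 29285 for SDC1. CD38 was the lowest of the 11, at 408 to 623 counts. Of the 8 markers of other cells, 7 had at most 56 counts in any library, and CD3E, a T cell receptor component, had 890 to 1063. Of the 3 markers of other cells that could be tested, edgeR called 0 (1 at an unadjusted p under 0.05, 0 in DESeq2).

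Ribosomal protein genes rose in the IRE1-treated libraries nearly as a whole. Tested with edgeR (quasi-likelihood fit, p-values adjusted by Benjamini and Hochberg over all 14398 genes), 82 of the 84 tested genes were higher at an adjusted p under 0.05, against 10.3% of all genes tested. None was lower, where 12.4% of all genes were, and at an unadjusted p under 0.05 the number that were lower was also 0, as it was in DESeq2 (75 higher, 0 lower). The median log2 fold change of the 84 genes was 0.32 (quartiles 0.26 and 0.38), beside 0.0045 over all genes tested, of which 7.47% had a higher value than this median. In 80 of the 84 genes every IRE1-treated library was above every control library, against 19.1% of all genes. With library size alone in place of TMM scaling, 74 were higher against 4.75% of all genes, and the medians were 0.24 for these genes and -0.071 for all. Counts are relative within a library, so a rise of these genes and a fall of other RNAs cannot be told apart.

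The size of the rise differed between the treated libraries. The median log2 difference of the 84 genes from the control mean was 0.44 in IRE1-treated replicate 1, 0.29 in replicate 2 and 0.20 in replicate 3. In the control libraries it lay between -0.021 and 0.018. Replicate 1 was the highest of the 3 treated libraries in 68 genes and replicate 3 the lowest in 78. Without IRE1-treated replicate 1 the median log2 fold change was 0.25 and 79 genes were higher, against 9.80% of all genes tested in that fit.

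**Figure D1:**
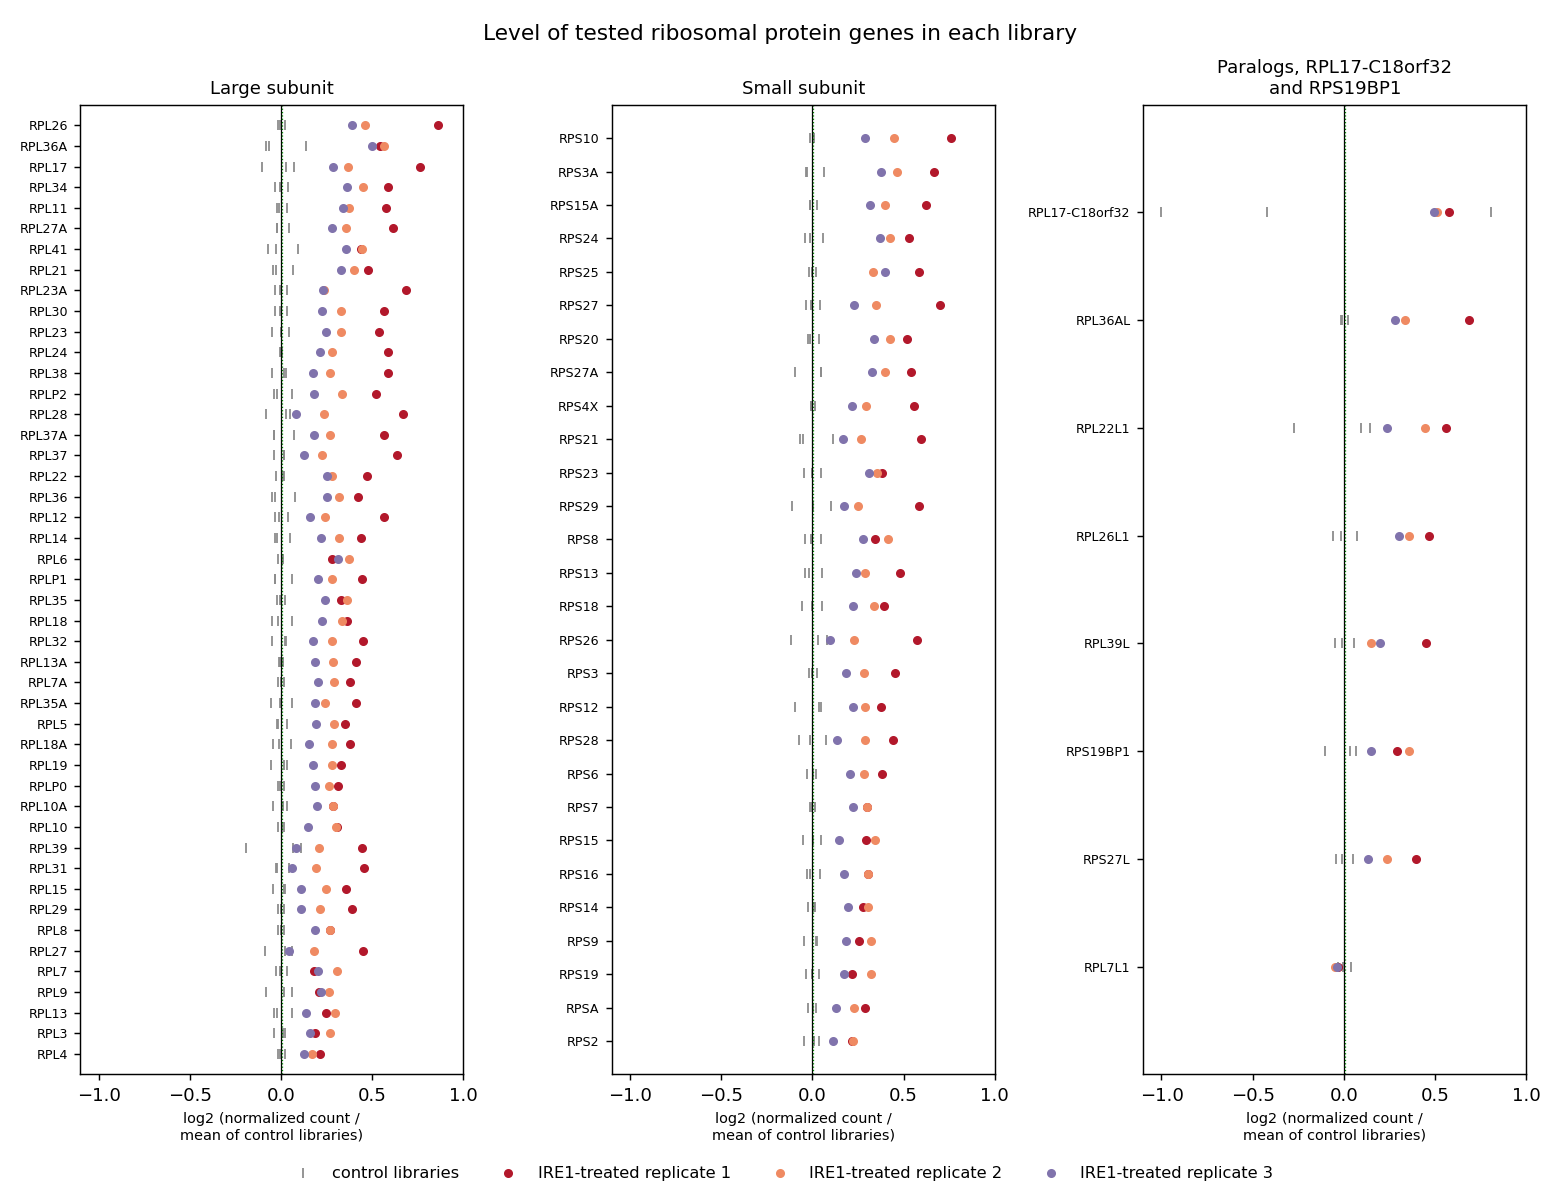
Log2 ratio of the normalized count in each library to the mean of the 3 control libraries (horizontal axis) for 82 of the 84 tested genes (rows, sorted by log2 fold change within a panel), with grey ticks for control libraries, coloured points for the 3 IRE1-treated libraries and a dotted line at the median of all genes. In 78 of the 82 rows the 3 coloured points lie to the right of every tick, and replicate 1 is the farthest right in 66.

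As a share of all counts on genes, ribosomal protein genes took 11.5%, 11.4% and 11.7% in the 3 control libraries and 14.3%, 13.5% and 12.9% in IRE1-treated replicates 1 to 3. The groups do not overlap, and the means were 11.5% ± 0.129 and 13.6% ± 0.721 (SD, n = 3 each). With the counts that name no gene in the denominator, the means were 9.03% ± 0.0648 and 10.5% ± 0.474.

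**Figure D2:**
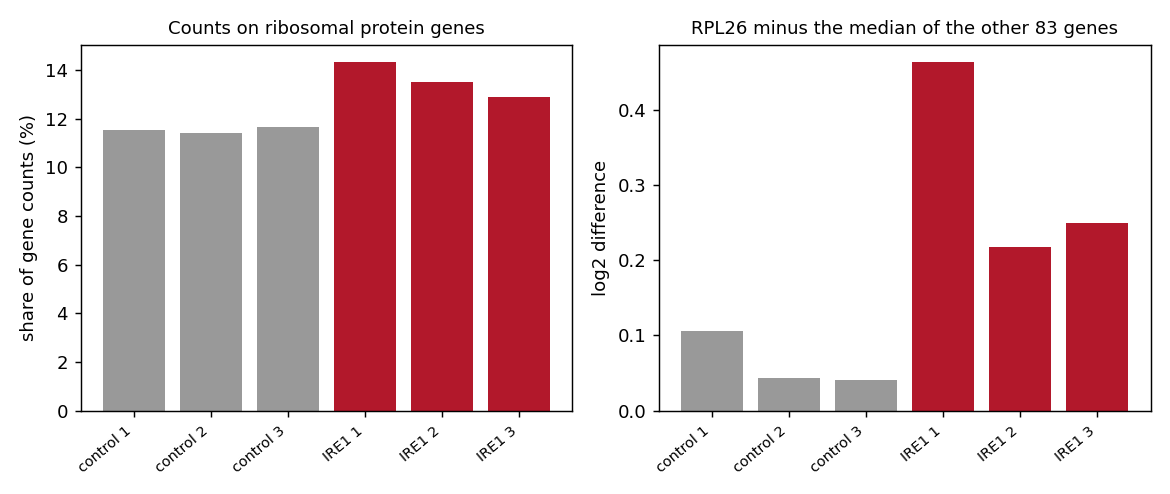
Left, the share of each library's gene counts (%) that fell on ribosomal protein genes, and right, the log2 normalized count of RPL26 minus the median of the other 83 tested genes, for each of the 6 libraries (grey, control; red, IRE1-treated). Both bars of every treated library stand above those of every control library, and IRE1-treated replicate 1 has the highest of each, at 14.3% and 0.46.

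Every tested canonical gene of both subunits rose. All 46 large subunit genes and all 30 tested small subunit genes among the canonical ones were higher, with no overlap between the groups of libraries in 44 and 30. Their median log2 fold changes were 0.31 for the large subunit and 0.33 for the small subunit, a difference of -0.017 (large minus small). Removal of the trend with transcript length and GC content brought it to -0.00024, and the sign turned with coding length (0.0017) or the longest transcript (0.016) in its place, so the subunits have no order that holds in every fit.

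RPL26, a large subunit protein near the exit of the peptide tunnel, had the highest fold change of the 84 genes. Its normalized counts were 26417, 25865 and 25665 in the control libraries and 47226, 35733 and 33987 in IRE1-treated replicates 1 to 3. The treated libraries were all above the controls, and replicate 1 was far above the other two. The log2 fold change was 0.59 (SE 0.0865, edgeR adjusted p = 0.000353), a mean 50.0% higher, and without IRE1-treated replicate 1 it was 0.43. Set against the other ribosomal protein genes of the same library, the log2 level of RPL26 exceeded the median of the other 83 by 0.11, 0.044 and 0.040 in the controls and by 0.46, 0.22 and 0.25 in the treated libraries. The groups do not overlap, and the difference between their means was 0.25 (exact two-sided permutation test, p = 0.1, n = 3 and 3, the smallest p that this design allows). As RPL26 has the highest fold change of the 84 genes, a positive difference follows from that rank, and the test is only a description.

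RPL26 (ENSG00000161970, chr17:8280834-8286531 on the minus strand of GRCh37) shares exons on the same strand with a protein-coding gene without a symbol, ENSG00000263809. Of the 528 bases of its transcript, 65.3% (bases 7 to 351) lie in exons of both genes and the last exon (bases 352 to 528, chr17:8280834-8281010) belongs to RPL26 alone. RPL36A shares 43.8% of its transcript with RPL36A-HNRNPH2 (bases 1 to 333 of 761), RPS10 shares 84.0% with RPS10-NUDT3 (bases 1 to 494 of 588), and RPL17 shares 96.9% with RPL17-C18orf32 (bases 1 to 595 of 614). The sequences around the last shared base are shown for the 3 genes in which this place is coding, because reads across it are among those that can be given to 1 gene alone. Each is 30 bases, 5′ to 3′ on the strand of the gene, with the bases shared by both genes in lower case and those of the ribosomal protein gene alone in capitals, and each spans an intron (chr17:8280996-8283128 for RPL26, chrX:100650431-100650730 for RPL36A and chr6:34385310-34386160 for RPS10).
RPL26: attcaccccagcaagGTGGTTATCACTAGG
RPL36A: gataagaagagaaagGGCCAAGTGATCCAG
RPS10: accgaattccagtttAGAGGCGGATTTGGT

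These 4 genes, the only tested canonical ones with over 40% of their transcript shared on the same strand, held 4 of the 5 highest fold changes. Apart from the first 6 bases of RPL26, the part that each has to itself is its 3′ end. Read pairs that lie within shared exons fit 2 genes, and HTSeq keeps an ambiguous line for such pairs, which counts to no gene. The overlap mode and the strand setting are not given in the sources used here. Counts of these 4 genes may thus rest more on their 3′ ends than those of other genes, so these values and their ranks are uncertain. The part of the shared exons in them was not tested. The overlapping genes themselves were counted at 1 to 3 (ENSG00000263809), 0 to 1 (RPL36A-HNRNPH2), 0 to 4 (RPS10-NUDT3) and 5 to 20 (RPL17-C18orf32) in a library. Without the tested genes that share over 40%, the median log2 fold change of the remaining 79 was 0.31.

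RPL36A, a large subunit protein that contacts the end of the exiting tRNA, had 11085, 9630 and 9522 normalized counts in the controls and 14694, 14888 and 14248 in the treated libraries. Its treated libraries were close together, unlike those of RPL26, and the log2 fold change was 0.54 (SE 0.0563, adjusted p = 3.92e-05). RPS10, at the head of the small subunit, had 8015, 8133 and 8122 in the controls and 13681, 11033 and 9873 in the treated libraries. Its log2 fold change was 0.51 (SE 0.0823, adjusted p = 0.000639). RPL17, which lines the peptide tunnel, had 9261, 8967 and 8190 in the controls and 14923, 11373 and 10724 in the treated libraries, with a log2 fold change of 0.49 (adjusted p = 0.00165). In RPS10 and RPL17, as in RPL26, replicate 1 stood above the other treated libraries, and the log2 fold change without it was lowest, at 0.37 for RPS10 and 0.33 for RPL17.

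RPS3A, a small subunit protein near the mRNA exit, was the 1 gene of the highest 5 that shares no exon on its own strand. On the opposite strand, 24.1% of its transcript is overlapped by SH3D19, and whether the counting used the strand is not given. The normalized counts of RPS3A were 32832, 30770 and 30754 in the controls and 49893, 43434 and 40820 in the treated libraries. No control library came near a treated one, and the log2 fold change was 0.51 (SE 0.062, adjusted p = 0.000106). RPS15A, which shares 9.90% of its transcript with another gene and was picked out after its value was seen, was at 0.45.

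**Figure D3:**
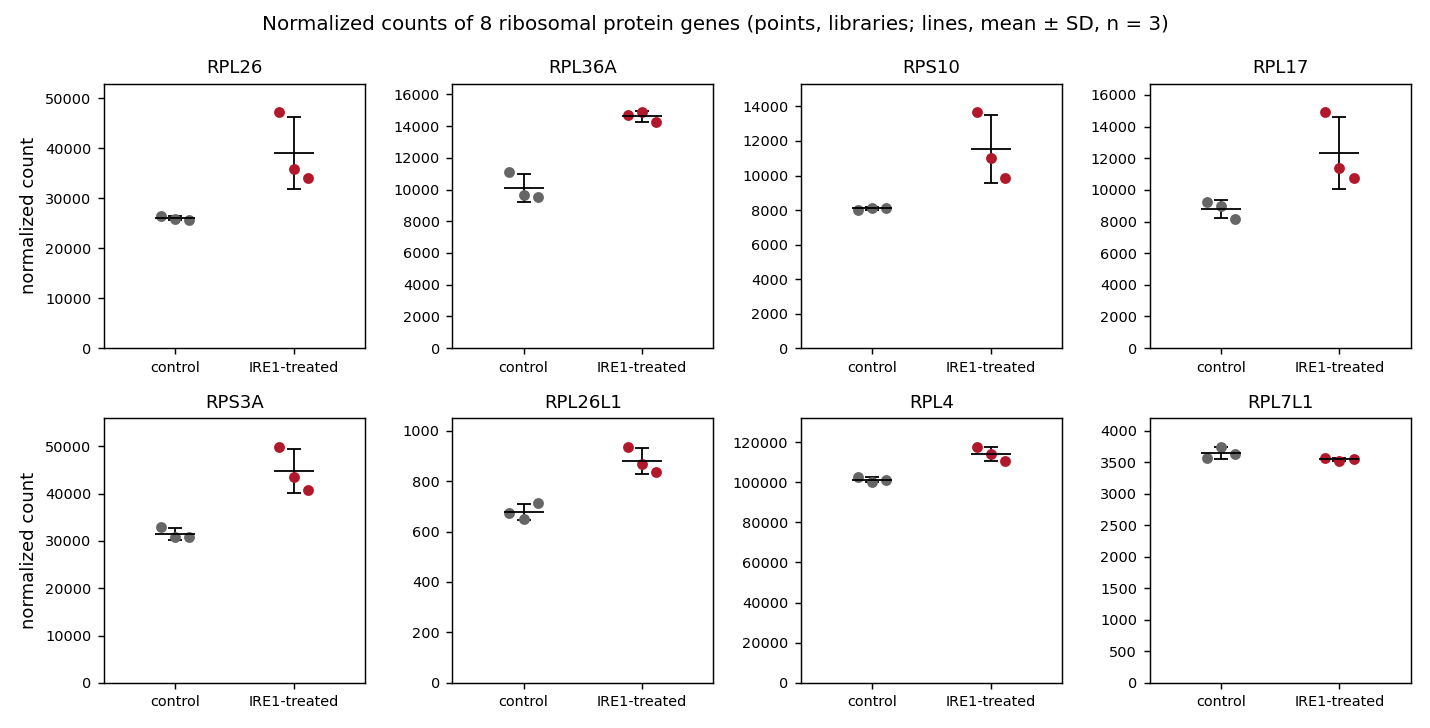
Normalized counts (vertical axes, from 0) of 8 genes in the 3 control and 3 IRE1-treated libraries, as points, with the mean and SD (n = 3). RPL26, RPL36A, RPS10, RPL17 and RPS3A have the 5 highest log2 fold changes (0.49 to 0.59), RPL26L1 is the paralog of RPL26, RPL4 has the lowest fold change among genes that rose, and RPL7L1 did not pass the test.

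The lowest values among canonical genes belonged to genes with coding sequences over the median of 453 bases. RPL4, which forms the narrow part of the peptide tunnel, had 102829, 100138 and 100958 normalized counts in the controls and 117714, 113839 and 110459 in the treated libraries. The groups do not overlap, and its log2 fold change was 0.17 (SE 0.0424, adjusted p = 0.0096). RPS2, at the mRNA entry, rose by 0.18, and RPL3, next to the peptidyl transferase centre, by 0.20 on the log2 scale. Leaving out 1 control library ended the call of RPL4 (control replicate 2, adjusted p = 0.0836) and of RPL3 (control replicate 2, 0.0549). Leaving out control replicate 1, control replicate 2 or IRE1-treated replicate 2 ended that of RPS2 (up to 0.0743).

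Genes with a second known function rose with the rest. RPL5 and RPL11 form with 5S RNA a particle that binds MDM2. RPL5 had 20432, 19703 and 19660 normalized counts in the controls and 25421, 24358 and 22750 in the treated libraries (log2 fold change 0.28, adjusted p = 0.00112). RPL11 had 37613, 36399 and 36097 in the controls and 54748, 47599 and 46546 in the treated libraries (log2 fold change 0.44, adjusted p = 0.000154). The treated libraries were above the controls in both genes. RPLP0, the anchor of the ribosomal stalk, rose by 0.26 on the log2 scale, and the 4 stalk genes all rose, by 0.26 to 0.35. RPS27A, made as a fusion with ubiquitin, rose by 0.42.

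RPS19 and RPS14 are known from Diamond-Blackfan anaemia and the 5q deletion syndrome, and rose by 0.24 and 0.26 on the log2 scale. RPS6, the substrate of S6 kinase, rose by 0.29, and RPS3, a protein of the mRNA entry that also takes part in DNA repair, by 0.31. RPSA, also known as the laminin receptor precursor, rose by 0.22, RPL10, which joins the large subunit late, by 0.25, and RPL13A, known from translational silencing by the GAIT complex, by 0.30. RPL22, an RNA-binding protein needed in T cell development, rose by 0.34. The adjusted p of these 8 genes lay between 0.000737 and 0.0049, and none lost its call when a library was left out.

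The genes with the shortest coding sequences were not the highest. The 11 genes with up to 300 coding bases all rose, with a median log2 fold change of 0.35 beside 0.31 for the other 73. RPL41, with the shortest coding sequence of all at 75 bases, had 15442, 13782 and 14216 normalized counts in the controls and 19646, 19689 and 18549 in the treated libraries (log2 fold change 0.41, adjusted p = 0.000108). A loess trend with coding length and GC content, in each library's deviations from the mean level of a gene, was also removed. The value of RPL41 was then 0.14 and the call was lost (edgeR adjusted p = 0.0853). RPS29, a zinc-binding protein, had 6234, 6733 and 7211 in the controls and 10099, 8000 and 7581 in the treated libraries, with a log2 fold change of 0.35 (adjusted p = 0.00776, and 0.062 without control replicate 1). RPL39, a protein of the tunnel wall, had 5644, 4565 and 5460 in the controls and 7111, 6025 and 5523 in the treated libraries. Its groups overlap, and its log2 fold change of 0.25 (adjusted p = 0.0418) lost the call when any library but IRE1-treated replicate 3 was left out (0.15 to 0.31, adjusted p up to 0.23). RPL27, named after its values were seen, was the other canonical gene whose groups overlap (log2 fold change 0.23).

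Per kilobase of the canonical transcript, RPS27 had the highest control level, at 178298 normalized counts per kb, and RPL13A was also among the 3 highest, at 97420. RPS27, a zinc finger protein of the small subunit, rose by 0.44 on the log2 scale, with 102066, 79795 and 73391 normalized counts in the treated libraries against 61241 to 64664 in the controls. Per kilobase of coding sequence, RPLP1 of the stalk followed RPS27 (210512 and 249051), ahead of RPL41 at 193066 and RPL13A at 180284. The lowest levels per kb of transcript belonged to RPL17-C18orf32 (6.69), RPL22L1 (142) and RPS27L (146). Across the 84 genes, log2 fold change and control level per kb of transcript had a Spearman correlation of -0.096, and -0.386 with the trend with transcript length and GC content removed, which is a description across genes that share libraries and scaling.

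Per kilobase of coding sequence each of the 6 tested paralogs had a lower control level than its parent, and 5 of the 6 rose. RPL26L1 (chr5:172385732-172396774), whose coding sequence is identical to that of RPL26 at 84.1% of 435 bases, had 672, 651 and 713 normalized counts in the controls and 936, 868 and 836 in the treated libraries. The groups do not overlap, and its log2 fold change was 0.37 (SE 0.0664, adjusted p = 0.0012), beside 0.59 for RPL26. RPL36AL, with 89.9% identity to RPL36A, rose by 0.45 and RPL22L1 by 0.41 (adjusted p = 0.0169). RPL39L (94.8% identity to RPL39) rose by 0.27 and RPS27L (77.8% identity to RPS27) by 0.26. How many reads fit both parent and paralog was not measured, so values of these pairs are uncertain to an unknown extent.

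RPL7L1, a paralog of RPL7 that works in the nucleolus in ribosome assembly, was the gene that stood apart. It had 3564, 3747 and 3637 normalized counts in the controls and 3571, 3525 and 3551 in the treated libraries. The groups overlap, and the log2 fold change was -0.04 (SE 0.0455, adjusted p = 0.58). It turned to 0.067 when the trend with transcript length and GC content was removed. RPS19BP1, not a ribosomal protein, rose by 0.27 (adjusted p = 0.00684).

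The calls of RPL22L1, RPL39L, RPS27L and RPS19BP1 were lost when single libraries were left out. For RPL22L1 these were control replicate 3 and IRE1-treated replicate 2 (adjusted p up to 0.0849), for RPL39L any control library and IRE1-treated replicate 1 (up to 0.119), for RPS27L control replicates 1 and 2 (up to 0.0756) and for RPS19BP1 control replicate 2 and IRE1-treated replicate 2 (up to 0.0611).

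The other genes of the name rule gave no call. RPL17-C18orf32 was tested with 5 to 20 counts in a library (log2 fold change 0.47, SE 0.427, adjusted p = 0.468), a depth at which a change of the size seen in the other genes was not detectable. RPL3L, RPL10L and the readthrough genes RPS10-NUDT3 and RPL36A-HNRNPH2 had 0 to 4 counts in any library and were not tested, nor was RPS4Y1. RPSA2 and RPS4Y2 have no row in the tables used here.

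Pseudogenes named after the 90 genes numbered 1599 in the annotation, with 1590 in the files and 669 with a count in at least 1 library. In a library they held 0.764 to 0.858% as many counts as the ribosomal protein genes. Of the 133 tested, 13 were higher (background 10.3%) and 2 lower, with a median log2 fold change of 0.15. Pseudogene counts were largest beside the parent's own for RPS2, at 13.2%, followed by RPS28 at 7.59%. These counts lay mostly on RPS2P46 (7383 to 8517 counts in a library) and RPS28P7 (1818 to 2839). Adding each pseudogene's counts to its parent left 82 genes higher and gave RPL26, with 17 named pseudogenes, a log2 fold change of 0.58. Read pairs without a unique alignment are counted to no gene, so this sum cannot show how many reads a gene shares with its copies. Across the 84 genes the number of pseudogenes and the log2 fold change had a Spearman correlation of -0.0065.

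Ribosomal protein mRNAs are short, and the fold change of other protein-coding genes fell with length. The median canonical transcript of the 84 genes was 844.5 bases and the median coding sequence 453 bases, against 3384 and 1431 for 12141 other tested protein-coding genes. Among those other genes the median log2 fold change was 0.27 for transcripts up to 500 bases, 0.23 from there to 1000 bases, 0.058 between 2000 and 3000 and -0.21 above 5000 bases. In the bin from 500 to 1000 bases 50.1% of the 595 other genes were higher, and the 39 ribosomal protein genes had a median of 0.33. By coding length, the medians up to 500 bases were 0.18 for 976 other genes and 0.35 for 52 ribosomal protein genes, and between 500 and 1000 bases 0.10 for 2705 and 0.27 for 30. Differences between the medians in a bin were not tested.

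**Figure D4:**
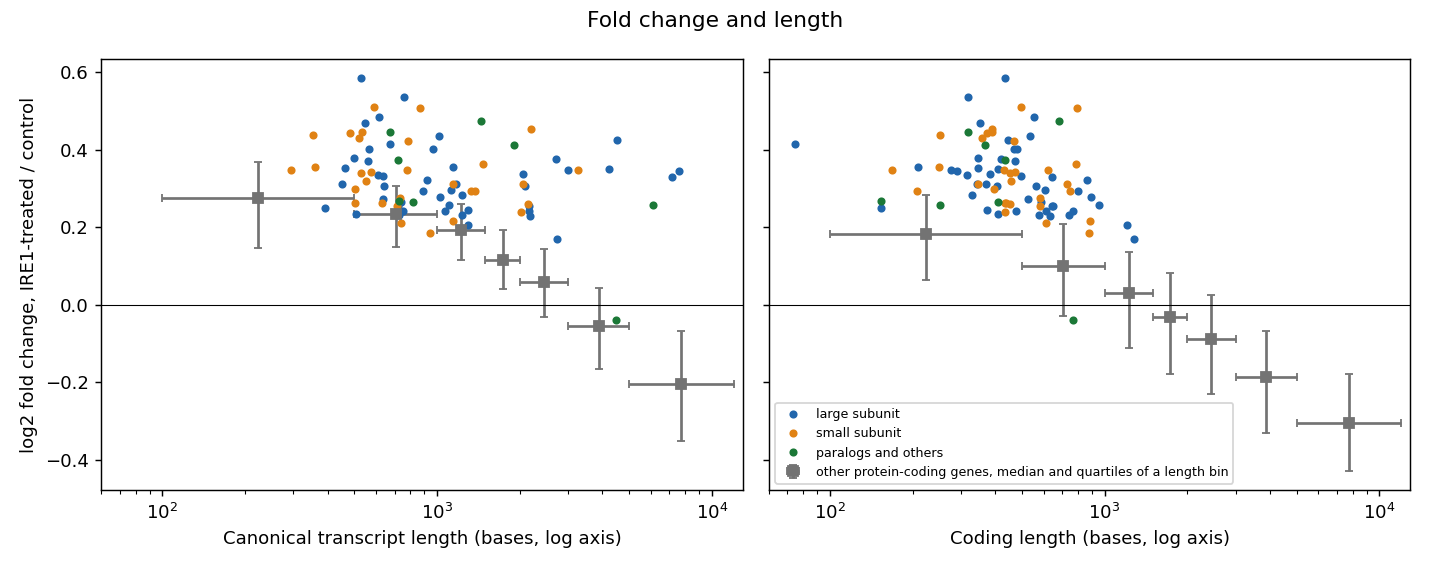
Log2 fold change (vertical axis) against canonical transcript length (left) and coding length (right), in bases on log axes, for the 84 tested genes (coloured points) and for other protein-coding genes (grey squares, median of a length bin, with quartiles as vertical bars and the bin as horizontal bars, the outermost bins being cut at the edges of the drawing). The grey medians fall from 0.27 to -0.21 with transcript length, and most coloured points lie above the grey square of their bin.

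To set this trend aside, a loess curve against transcript length and GC content was fitted in each library. It was fitted to each gene's log2 level minus that gene's mean over all libraries, and was removed before the same test. Then 59 of the 84 genes were higher, against 6.97% of all genes, and 0 lower, with a median log2 fold change of 0.17 (0.02 over all genes). The canonical large subunit had 36 of 46 genes higher and the small subunit 20 of 30. RPL26 stayed at 0.40 (SE 0.0668, adjusted p = 0.00135), now the sixth value of the 84, and RPL36A at 0.38. Among the genes that lost their calls were RPS2, RPL3, RPSA, RPL39 and RPS29, together with RPL22L1, RPL39L and RPS19BP1. The values of those listed were 0.036 to 0.35, and further genes not listed lost theirs.

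The choice of length matters for some genes, because the canonical transcripts of a few ribosomal protein genes in this annotation are far longer than their coding sequence. The 5 canonical genes with transcripts over 3000 bases had a median log2 fold change of 0.35 before and 0.53 after the removal, among them RPL37 (7573 bases, 0.35 and 0.59), named after its values were seen. RPS27L, at 6110 bases, went from 0.26 to 0.45. With coding length in place of transcript length, chosen after seeing the data, 60 genes were higher (8.51% of all genes), the median was 0.18, RPL37 came to 0.19 and RPS27L to 0.10. RPL26 was then the third value, at 0.46, behind RPS3A and RPL17-C18orf32 (both 0.47), the latter with 5 to 20 counts.

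**Figure D5:**
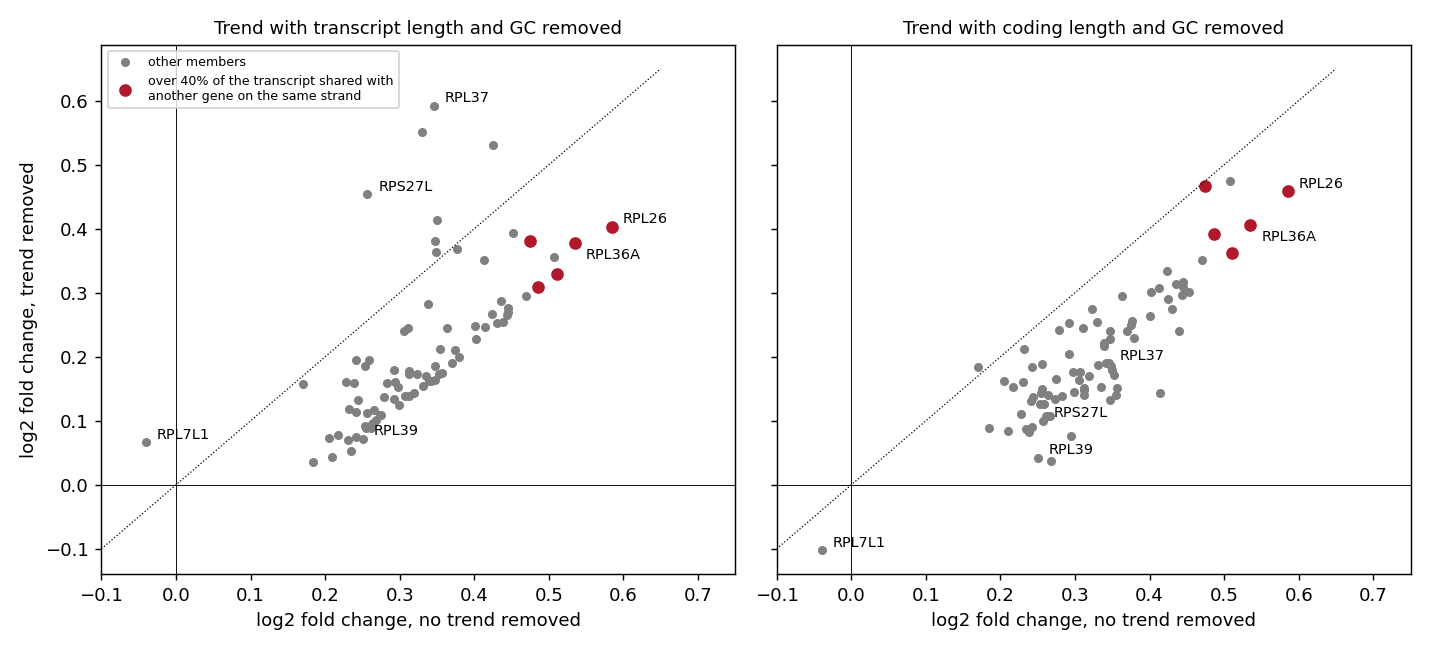
Log2 fold change of the 84 tested genes before (horizontal axis) and after (vertical axis) removal of the trend with GC content and with transcript length (left) or coding length (right); the dotted line marks equal values, and red points are the 5 tested genes that share over 40% of their transcript with another gene on the same strand. Most points fall below the dotted line and above 0 on both sides, and RPL37 and RPS27L lie above it on the left and below it on the right.

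Among the 84 genes themselves, log2 fold change had a Spearman correlation of -0.24 with transcript length, -0.38 with coding length and -0.35 with GC content. The 26 genes with at most 45% GC had a median log2 fold change of 0.36 and the 31 above 50% GC one of 0.27. The 30 genes that hold small nucleolar RNA genes within them (63 in all), which guide modification of ribosomal RNA, had a median of 0.32, as did the 54 without. The 84 genes lie on 21 chromosomes, 12 of the canonical ones on chromosome 19. Exons of 14 of the genes are overlapped by a gene on the opposite strand, and all 14 were higher; whether the counting used the strand is not given in the sources used here.

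The IRE1 consensus was found in a smaller share of ribosomal protein mRNAs than of others. CTGCAG, written as DNA and searched on the transcript strand, occurred in the canonical transcript of 37 of 84 genes (44.05%), against 85.6% of the other 12141 protein-coding genes, which are longer. Per kilobase the values were 0.53 and 0.807 sites. Within a predicted hairpin loop the motif was present in 9 of 84 (10.7%) and 35.6%, or 0.0854 and 0.124 sites per kilobase. The median log2 fold change was 0.29 in the 37 genes with a site and 0.33 in the 47 without, and 0.24 in the 9 with a hairpin site. RPL26 has no CTGCAG in its transcript.

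A site in the coding sequence was found in 16 genes, all of them higher, with a median log2 fold change of 0.25 (0.34 for the other 68, of which 66 were higher). With the trend with transcript length and GC content removed, the medians were 0.15 and 0.19. Then 10 of the 16 and 49 of the 68 were higher, against 6.97% of all genes, and the difference was not tested. RPL36A, with the second highest fold change, and RPL4, with the lowest among genes that rose, carry 1 and 2 coding sites, and the site of RPL36A and the one nearest the start of RPL4 are shown with the motif in capitals and 12 bases on either side, for RPL36A at chrX:100650361-100650390 on the plus strand and for RPL4 at chr15:66791945-66791974 on the minus strand of GRCh37. None of these 3 coding sites lies in a predicted hairpin loop. RPL4 has 2 further sites outside its coding sequence, of which 1 does. A match of 6 letters is a description and not a cut site. With CNGCAG in place of CTGCAG, 63 genes (75%) had a match, against 97.0% of the others, or 1.38 and 2.13 sites per kilobase.
RPL36A: cgttgagcccaaCTGCAGatctaagagaat
RPL4: ataaggcagctgCTGCAGcagcggcactac

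Ribosomal proteins that the name rule leaves out rose too. FAU, whose product is a fusion of a ubiquitin-like protein with a ribosomal protein, rose by 0.28 on the log2 scale and RACK1 of the small subunit by 0.21. After removal of the length and GC trend neither passed (0.11 and 0.07, edgeR adjusted p = 0.0814 and 0.22). Of 21 other genes with TOP mRNAs, 13 were higher and 1 lower, against 10.3% and 12.4% of all genes, with a median of 0.20 (11 and 1 with the trend removed, median 0.17). The genes that passed ran from the translation elongation factor subunit EEF1B2 at 0.31 to TMEM123 at -0.28. EEF1A1, the most abundant of them, rose by 0.17 and EEF2 was at 0.0048 (adjusted p = 0.949).

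Ribosome assembly and the control of ribosomal protein mRNAs were more mixed, and the counts stand beside the same 10.3% higher and 12.4% lower of all genes. Of 46 ribosome biogenesis genes 19 were higher and 3 lower (median 0.14). Among them NOP58, of the box C/D small nucleolar RNPs, was highest at 0.45 and DDX21, an RNA helicase, lowest at -0.34. Of 14 tested chaperones and importers of ribosomal proteins 3 were higher and 2 lower, from BTF3 (0.29) to the importin IPO7 (-0.42). Of 10 regulators of TOP mRNAs and mTOR genes, 2 were higher and 5 lower (median -0.19), HNRNPD being highest at 0.19 and LARP4, a binder of poly(A) tails, lowest at -0.39. After removal of the length and GC trend, where 6.97% of all genes were higher and 4.04% lower, the biogenesis counts were 9 higher and 1 lower and those of the chaperones and importers 6 and 1. Each of the 5 lower regulators, LARP1, LARP4, LARP4B, RPS6KB1 and MTOR, then lost its call (edgeR adjusted p = 0.0801 to 0.646), and the median of that list was -0.02. IPO7 (-0.20), DDX21 (-0.21) and NOP58 (0.39) stayed past the threshold. BTF3, NACA and RACK1 stand in 2 of these lists each.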

How the data were processed

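RNA-seq was carried out on poly(A) RNA of 3 IRE1-treated and 3 control libraries of H929. Per the labels' processing notes, the authors used cutadapt 1.12, STAR 2.5.3a and HTSeq 0.6.1p1, on GRCh37 (hg19). They deposited raw read counts per Ensembl gene, and a table of CPM made with edgeR 3.24.3, used here only in an alternative. HTSeq's lines that name no gene (21.4 to 23.2% of counts) entered neither library sizes nor tests.

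From the counts, edgeR 4.0.16 (R 4.3.3) was run with filterByExpr, TMM and glmQLFTest on all 6 libraries without covariates, with Benjamini-Hochberg adjustment over 14398 of 24945 genes with a count and a threshold of 0.05. Fold changes are IRE1-treated over control. To obtain normalized counts, each count was divided by its library's effective (TMM) size and multiplied by the average library size. The fit was tested on simulated data. GENCODE release 44, lifted to GRCh37, gave names, positions and sequences for 55538 of 57905 identifiers, and the canonical transcript was used for length. Pseudogenes are those named after a gene. Hairpins were folded with ViennaRNA 2.7.2 (15 bases on either side, loops of 5 to 11 bases closed by 3 pairs). Correlations used scipy 1.17.1.

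Alternatives were DESeq2 1.42.0, scaling by library size or by the upper quartile, a filter at 10 counts in every library or none, limma 3.58.1 on log2 of the authors' CPM (pseudocount 1), the replicate number as a block, removal of a loess trend (span 0.5) with length and GC content, both together, pseudogene counts added to parents, each library left out, and the canonical genes alone. The trends with coding length or the longest transcript, the length and GC trend without IRE1-treated replicate 1 and the median without genes that share exons were added after seeing the data.

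The genes and lists were chosen with earlier results of these data known. Named genes are RPL26 and RPL26L1, genes with known further roles, paralogs, readthrough genes and RPS19BP1, the 5 highest and 5 lowest fold changes, the 3 highest and 3 lowest control levels per kb, overlapping genes and the highest and lowest called gene of each list; others are said to be so. The labels number the replicates but name no separate cultures beyond the series' description, so p-values measure the spread between these libraries, which may be in part technical. No 2 libraries were copies of each other. Some genes are not reported here.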

Additional observations from a re-analysis of the deposited data

Results flagged for a closer look

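HTSeq's summary lines name no gene and enter no comparison above. Of 2 of them, every IRE1-treated library held a larger share than every control library. Read pairs that fit more than 1 gene (ambiguous) made up 3.93 to 4.03% of the counts in the controls and 4.11 to 4.24% in the IRE1-treated libraries. Read pairs without a unique alignment made up 10.7 to 11.40% in the controls and 11.41 to 12.6% in the IRE1-treated libraries, where the gap between the groups was small beside the range within them. Which genes these pairs came from was not analysed here, and their part in the values of ribosomal protein genes with shared exons, paralogs or pseudogenes was not tested.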

How the results depend on the processing

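The number of lower ribosomal protein genes was 0 under every alternative run. The number of higher ones, 82 in the main analysis, lay between 69 and 82 when 1 library was left out (lowest without control replicate 2), and was 74 with library size only, 75 in DESeq2 and 59 with the length and GC trend removed. It fell to 53 with the replicate block together with that trend removed. The median log2 fold change ran from 0.25 to 0.37 with 1 library left out. It came to 0.17 with the length and GC trend removed, also with the replicate block (0.172), to 0.18 with coding length in the trend, and to 0.15 with the trend removed and IRE1-treated replicate 1 left out. The large minus small subunit difference was -0.00024 with the trend removed and -0.0065 with IRE1-treated replicate 1 also left out, and changed sign with the replicate block and the trend removed (0.0036), with coding length (0.0017) and with the longest transcript (0.016). With 1 library left out it lay between -0.024 and -0.013. RPL26 kept its call throughout, at 0.43 to 0.68 with 1 library left out and 0.29 with the trend removed and IRE1-treated replicate 1 left out. RPL7L1 changed sign with the length and GC trend removed (0.067), also with the replicate block (0.067), with the longest transcript (0.030) and with the trend removed and IRE1-treated replicate 1 left out (0.048), and passed the threshold in none of these. Other than the removal of a trend itself, the cause of these shifts was not tested. Deviations of same-numbered libraries from their group means had correlations of -0.036, -0.0050 and -0.11. With 3 libraries a group, and treated libraries that differed in the size of the rise, these values cannot decide whether the replicate numbers pair the samples. The replicate block alone left 82 genes higher with RPL26 at 0.57. Among the named genes 74 of their alternative values lost the call and 0 gained it. The most were 10 with coding length, 9 with the length and GC trend removed, 9 with the replicate block and that trend removed, and 8 without control replicate 2. With 3 libraries a group, RPL17-C18orf32 and the untested genes were too shallow for a statement.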
